A study of Rattus norvegicus with 743 samples.

Results

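Panadiplon was described in the liver of 4 male Han Wistar rats given the drug at 600 mg per kg per day for 4 days, beside 4 male Han Wistar rats given the vehicle alone. The 8 animals were all libraries labelled panadiplon together with the vehicle libraries that carry the same study, batch number and vehicle, out of 743 libraries of 680 animals in the series. Both groups received 0.5% (w/v) methylcellulose in deionized water, and the groups share strain, sex, study and batch number. The dose unit in the labels is mkd, read here as mg per kg per day. The series holds liver messenger RNA of rats dosed daily with pharmaceuticals and killed 24 hours after the last dose. Each library here is a separate animal by its label, and the labels give no age. For comparison, 2 other drugs that act at the same receptor site were used. Alpidem was given at 600 mg per kg per day for 4 days to 4 male Han Wistar rats in a polyethylene glycol and saline vehicle, and zolpidem at 500 mg per kg per day for 4 days to 3 male Han Wistar rats in methylcellulose. Each of these had 4 vehicle animals of its own, and all of them carry batch number 9, whereas the panadiplon study carries batch number 3.

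Panadiplon is an anxiolytic that binds as a partial agonist to the benzodiazepine site of the GABA-A receptor, a chloride channel of neurons. Its development was stopped because of liver toxicity. In rabbits it caused a Reye-like injury, and its cyclopropane carboxylic acid metabolite has been linked to loss of free carnitine and coenzyme A and to impaired fatty acid oxidation in mitochondria. The liver answers many foreign compounds through nuclear receptors, among them CAR, which binds or senses phenobarbital-like drugs, and PXR, and through the aryl hydrocarbon receptor AhR and the oxidant sensor NRF2. These factors switch on enzymes that oxidise, conjugate and export drugs. CAR activators also cause a transient wave of hepatocyte division in rodents.

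Sequencing depth was 16.75 to 18.72 M counts in the vehicle animals and 17.15 to 22.47 M in the panadiplon animals. RNA integrity numbers (RIN) were 8.5 to 9 in the vehicle group and 8 to 8.7 in the panadiplon group, so that RNA quality moved with treatment. Hepatocyte transcripts were abundant in every library, with albumin at 141000 to 179000 CPM (counts scaled to a common library total) in the vehicle animals. The library of panadiplon animal 3 stood apart because it held transcripts of exocrine pancreas. Reads of the trypsinogen gene Prss1 numbered 0 in all 4 vehicle animals and in panadiplon animals 1 and 2, but 4265 in animal 3 and 210 in animal 4. Pancreatic lipase, Pnlip, gave 1932 reads in animal 3, 73 in animal 4 and 0 in the other 6 animals. The summed level of the pancreas list was 27.2 to 40.5 CPM in the vehicle animals and 20.4, 27.4, 665 and 56.7 CPM in panadiplon animals 1 to 4. Nearly all of the vehicle sum was the list member Cela1, at 27.1, 27.5, 37.4 and 40.5 CPM. Cela1 stood at 20.3, 27.3, 88.9 and 29.3 CPM in panadiplon animals 1 to 4. Animal 3 also differed from the other treated animals in Srebf1, a regulator of lipid synthesis, named here after its values were seen. It stood at 542 CPM in animal 3 against 68.1, 122 and 109 CPM in animals 1, 2 and 4. Without animal 3 the log2 fold change of Srebf1 went from 0.34 to −0.74, and it did not pass in either case. The cause of the profile of animal 3 was not tested.

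Panadiplon changed 1696 of the 12580 genes tested, 13.5%, of which 993 were higher (7.89%) and 703 lower (5.59%) at an adjusted p under 0.05 (edgeR quasi-likelihood test with Benjamini-Hochberg adjustment over all genes tested). Fold changes are log2 of panadiplon over vehicle, with the standard error (SE). Their median was −0.001 over all genes tested, 0.73 over those that rose and −0.56 over those that fell. At least a doubling or halving was seen in 339 of the genes that rose and 116 of those that fell. All 4 treated animals lay above all 4 vehicle animals in 1546 genes (12.3%) and below them in 1252 (9.95%). Among the changes with the greatest size were rises of drug-metabolising enzymes and falls of amino acid-degrading enzymes. Without animal 3, 1600 genes passed, 917 higher and 683 lower, and 1297 of them were among the 1696. With RIN as a covariate, 1035 genes passed and 791 of the 1696 were kept. Leaving out vehicle animal 1, 2, 3 or 4 gave 866, 1037, 926 and 1110 genes.

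Of the 88 genes named here that passed, 54 also passed without each of the 8 animals in turn, and none of the 88 changed direction. The calls of the other 34 were lost without at least 1 animal and are less firm. These were Arg1, Asl, Ass1, Cps1, Tat and Tdo2 in nitrogen metabolism, Cyp1a1, Cyp2b1, Cyp2b2, Nqo1 and Slc16a5 among the increases in drug handling and transport, and Mcm2, Mcm3, Pcna, Mybl2, Cdc25c, Cdk4, Cdkn1b, Rb1, Btg2 and Egr1 in growth control. They also included Asns, Psat1, Chac1, Sesn2 and Hspa5 in the stress lists, Crot, Acaa1a, Acot8, Etfa and Fads1 in lipid metabolism, and Glul, Hbb and Hnf4a. By animal, 29, 23, 31 and 25 calls were lost without vehicle animal 1, 2, 3 and 4 and 14, 13, 13 and 18 without panadiplon animal 1, 2, 3 and 4. Only 41 of the 88 passed under every alternative fit, and 20 calls were lost with RIN as a covariate. Calr, Cry1, Arntl, Tef, Bdh1, Ppcdc, Slc13a3 and Slc16a1 passed without each animal in turn but not with RIN as a covariate, and are also less firm. Nr1i3, Otc and Psph, which did not pass with all 8 animals, passed without panadiplon animal 3.

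**Figure D1:**
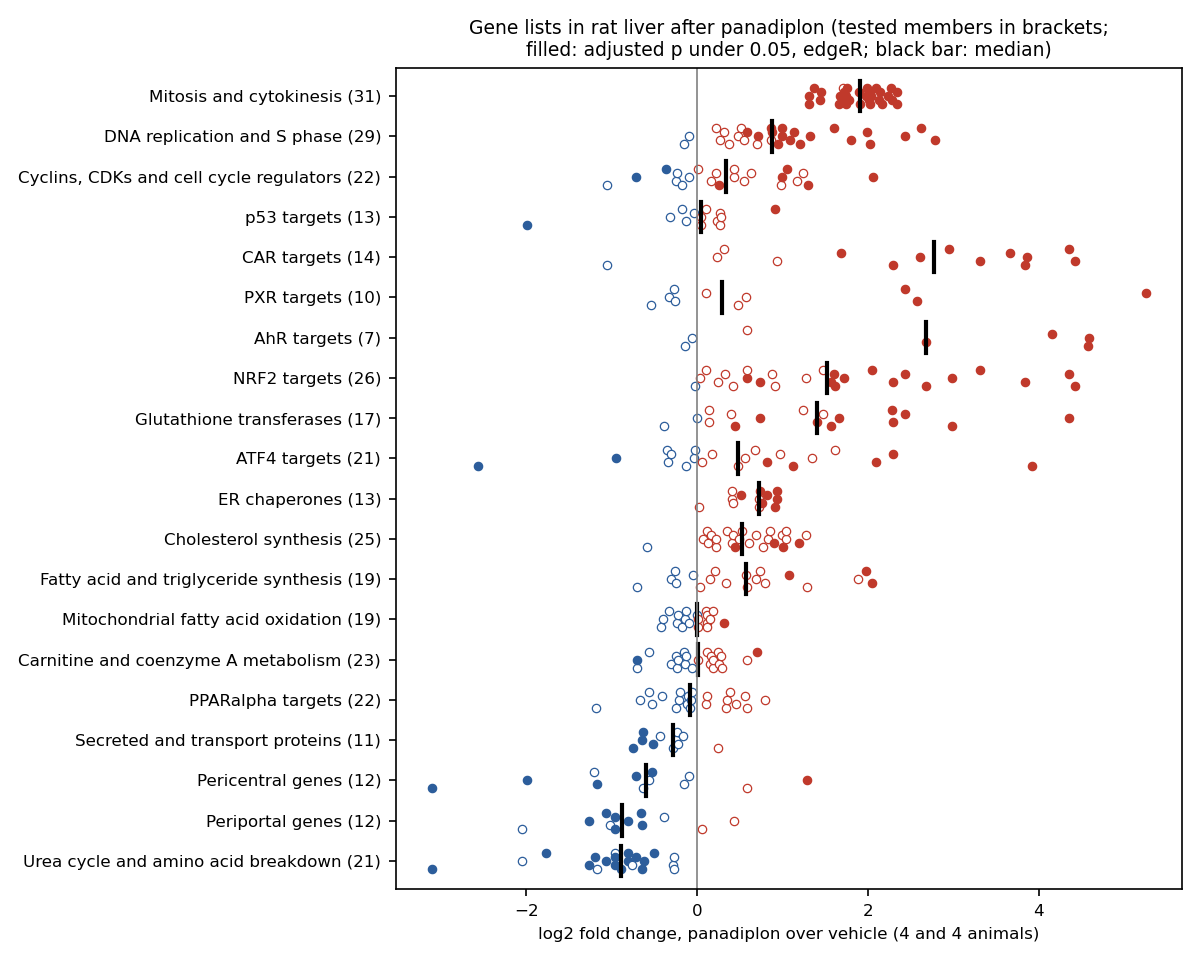
Log2 fold change, panadiplon over vehicle (x axis), of each tested member of 20 gene lists (rows), with filled points for genes past the threshold (edgeR, adjusted p under 0.05), open points for the others and a black bar at each list's median. Mitotic genes lie to the right of 0 with a median of 1.91, and urea cycle and amino acid breakdown genes lie to the left with a median of −0.89.

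Genes of cell division rose in all 4 panadiplon animals. Of 32 mitosis and cytokinesis genes listed, 31 matched the table and all 31 passed the filter on low counts, and 30 of these 31 rose while none fell. Their median log2 fold change was 1.91, against −0.001 over all genes tested. Of 29 DNA replication genes tested, 18 rose and none fell, with a median of 0.88. The summed level of the mitosis list was 61.2 to 72.8 CPM in the vehicle animals and 365, 171, 189 and 225 CPM in panadiplon animals 1 to 4. The lowest treated animal was therefore above every vehicle animal.

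Promoters of 4 of these genes are shown because many promoters of the mitotic list held the short elements described next. The element CCAAT is the core of the binding site of NF-Y, and TTTGAA is the cell cycle homology region through which MuvB complexes time late cell cycle transcription. Capitals mark both elements on either strand, and the sequences run 5′ to 3′ on the gene's strand over 250 bases before and 50 after the start site (RefSeq, build GRCr8). Cdk1 lies at chr20:19265043-19265342 on the plus strand, Top2a at chr10:84473044-84473343 on the minus strand, Mki67 at chr1:199952544-199952843 on the minus strand, and Mcm6, a replication gene shown for contrast, at chr13:42404303-42404602 on the minus strand.
Cdk1: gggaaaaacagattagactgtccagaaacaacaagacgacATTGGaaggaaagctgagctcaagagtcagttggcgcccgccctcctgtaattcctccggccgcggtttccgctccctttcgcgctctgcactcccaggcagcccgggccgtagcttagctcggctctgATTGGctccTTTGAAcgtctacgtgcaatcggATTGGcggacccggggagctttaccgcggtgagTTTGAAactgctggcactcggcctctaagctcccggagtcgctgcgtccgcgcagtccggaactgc
Top2a: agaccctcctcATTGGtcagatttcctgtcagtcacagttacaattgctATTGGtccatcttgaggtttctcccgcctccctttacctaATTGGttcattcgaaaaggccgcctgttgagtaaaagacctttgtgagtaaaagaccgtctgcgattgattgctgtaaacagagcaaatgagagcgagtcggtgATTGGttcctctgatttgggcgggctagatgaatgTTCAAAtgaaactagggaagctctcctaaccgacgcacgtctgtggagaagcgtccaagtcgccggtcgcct
Mki67: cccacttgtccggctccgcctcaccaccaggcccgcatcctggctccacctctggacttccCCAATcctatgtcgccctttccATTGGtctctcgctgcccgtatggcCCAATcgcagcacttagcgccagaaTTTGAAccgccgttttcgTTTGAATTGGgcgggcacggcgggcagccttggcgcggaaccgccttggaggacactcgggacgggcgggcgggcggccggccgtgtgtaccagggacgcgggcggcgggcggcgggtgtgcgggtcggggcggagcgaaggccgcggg
Mcm6: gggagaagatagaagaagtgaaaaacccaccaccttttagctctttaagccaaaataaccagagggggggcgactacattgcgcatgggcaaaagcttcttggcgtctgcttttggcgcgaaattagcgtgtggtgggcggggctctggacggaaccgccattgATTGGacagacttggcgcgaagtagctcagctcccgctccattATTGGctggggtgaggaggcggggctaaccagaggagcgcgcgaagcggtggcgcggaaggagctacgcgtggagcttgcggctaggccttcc
The promoters of Cdk1, Top2a and Mki67 held 3, 4 and 4 copies of CCAAT and 2, 1 and 2 copies of TTTGAA, and that of Mcm6 held 2 copies of CCAAT and 0 of TTTGAA. Of the 30 mitotic genes that rose, 25 had a promoter in the RefSeq table. CCAAT occurred in 19 of these 25 (76%), against 37.5% of all 33469 promoters of the same length. TTTGAA occurred in 19 of the 25 (76%) against 18.3% of all promoters, and both elements in 15 (60%) against 7.41%. Of the 18 replication genes that rose, 17 had a promoter, with CCAAT in 9 (52.9%) and TTTGAA in 1 (5.88%). Since 30 of the 31 mitotic genes tested rose, these shares describe the list and cannot show what set the responding genes apart. A match is a run of letters, not a measured binding site.

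Mki67, the antigen of dividing cells, stood at 5.59, 8.24, 7.93 and 7.2 CPM in the vehicle animals and at 37.8, 17.7, 25.4 and 28.2 CPM in the panadiplon animals. Its log2 fold change was 1.91 ± 0.225 (SE, n = 4 and 4, edgeR adjusted p = 0.00197). Every treated animal was above every vehicle animal, and animal 1 was highest. Top2a, the topoisomerase that untangles chromosomes before mitosis, stood at 5.77, 6.23, 4.66 and 4.96 CPM in the vehicle animals and 39.6, 18.9, 21.9 and 23.9 CPM in the treated animals. It rose by 2.27 ± 0.236 (edgeR adjusted p = 0.00146). Cdk1, the kinase that starts mitosis, stood at 1.94, 2.53, 2.14 and 1.63 CPM against 14.4, 6.39, 7.58 and 9.03 CPM. It rose by 2.17 ± 0.266 (edgeR adjusted p = 0.00194), with the groups apart and animal 1 again highest. Cyclin A2, Ccna2, rose by 2.34 ± 0.347 (edgeR adjusted p = 0.0039), cyclin B1, Ccnb1, by 1.99 ± 0.303 (edgeR adjusted p = 0.00444), and Foxm1, a transcription factor of late cell cycle genes, by 2.06 ± 0.264 (edgeR adjusted p = 0.00225). The one mitotic gene that did not pass was the kinase Melk, at 0.452 ± 0.289 CPM in the vehicle group and 1.49 ± 0.909 CPM in the panadiplon group (SD, n = 4 each), with a log2 fold change of 1.71 ± 0.541 (edgeR adjusted p = 0.064).

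**Figure D2:**
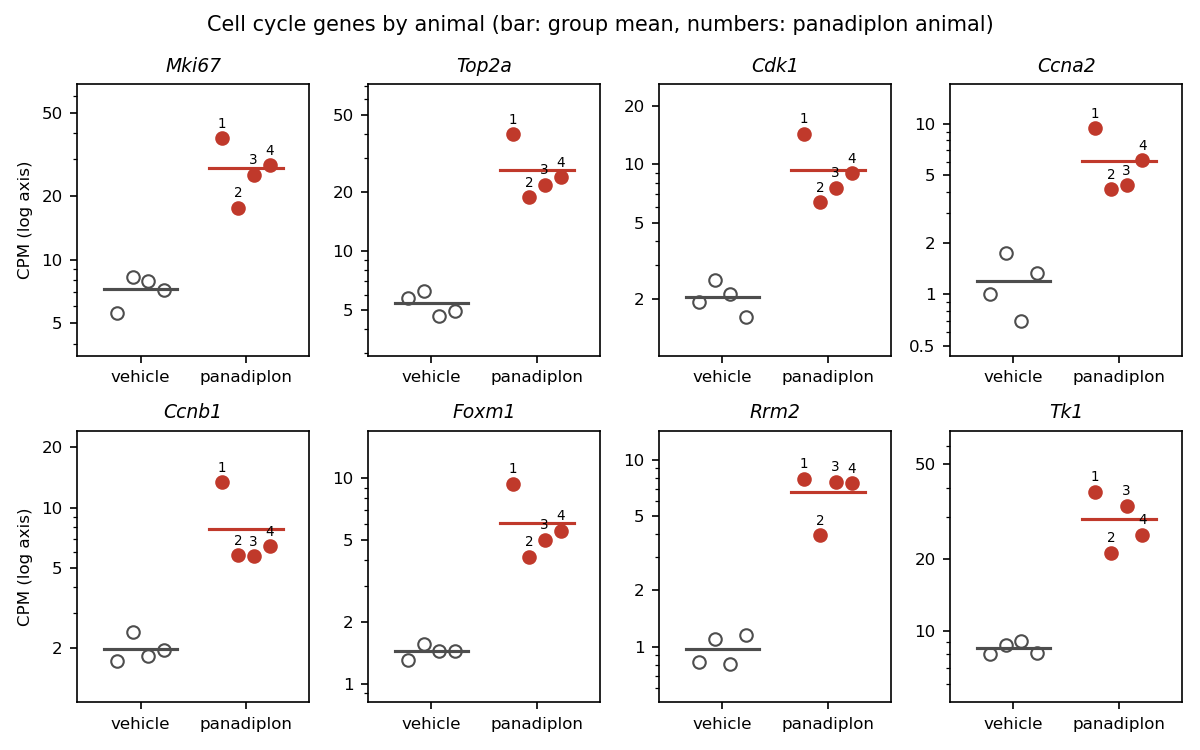
CPM on a log axis of 8 cell cycle genes in the 4 vehicle animals (open points) and the 4 panadiplon animals (filled points, numbered by animal), with a bar at each group's mean. In each of the 8 genes the lowest treated animal is above the highest vehicle animal, and animal 1 is the highest.

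Among replication genes the log2 fold changes ran from −0.15 to 2.79. Rrm2, the regulated subunit of ribonucleotide reductase, stood at 0.824, 1.1, 0.804 and 1.15 CPM in the vehicle animals and 7.91, 3.93, 7.63 and 7.47 CPM in the treated animals, a rise of 2.79 ± 0.263 (edgeR adjusted p = 0.000801). Thymidine kinase, Tk1, rose from 8.01, 8.7, 9.11 and 8.11 CPM to 38.4, 21.3, 33.5 and 25.4 CPM, by 1.8 ± 0.177 (edgeR adjusted p = 0.000938). Neither gene overlapped between groups. Of the 6 subunits of the MCM helicase, which unwinds DNA at origins, Mcm5 (2.43), Mcm6 (1.99), Mcm3 (1.6) and Mcm2 (0.86) rose, whereas Mcm4 and Mcm7 had log2 fold changes of 0.37 and 0.55 and did not pass. The sliding clamp Pcna rose by 0.59 ± 0.158 (edgeR adjusted p = 0.0374), from 13.7 ± 1.57 to 20.6 ± 4.56 CPM (SD, n = 4 each). Without animal 3, 16 replication genes and 30 mitotic genes rose, and leaving out each animal in turn gave 11 to 18 and 29 to 30, with 11 replication genes without vehicle animal 1.

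Regulators of the cell cycle moved in both directions. Of 22 cyclins, cyclin-dependent kinases, inhibitors and other regulators tested, 5 rose and 2 fell, against 7.89% and 5.59% of all genes tested, with 2 to 5 higher and 1 to 2 lower as each animal was left out. Besides Foxm1, the genes that rose were the transcription factor Mybl2 (1.3), the phosphatase Cdc25c (1.05), the kinase Cdk4 (0.26) and the kinase inhibitor Cdkn2c (0.99 ± 0.215, edgeR adjusted p = 0.0172). Other genes that restrain the cycle fell, Cdkn1b by 0.36 (edgeR adjusted p = 0.0184) and Rb1 by 0.71 (edgeR adjusted p = 0.0218). Cyclin D1, Ccnd1, stood at 20.1 ± 9.51 CPM in the vehicle group and 9.7 ± 7.04 CPM in the panadiplon group and did not pass (log2 fold change −1.06 ± 0.547, edgeR adjusted p = 0.243). The p53 target Cdkn1a had a log2 fold change of −0.18 ± 0.464 (edgeR adjusted p = 0.841). Of 13 p53 targets tested, 1 rose (Fas, a death receptor, 0.91) and 1 fell (Btg2, an antiproliferative gene, −1.99), with a list median of 0.05. These counts are close to the 7.89% higher and 5.59% lower of all genes tested. The Btg2 call was lost in 7 of the fits with 1 animal left out. Among 16 immediate early and growth genes, 1 rose and 4 fell. The list count rested on single animals, at 0 to 2 higher and 1 to 6 lower as each animal was left out. Those that fell included Egr1 (−1.86 ± 0.488, edgeR adjusted p = 0.0451), whose groups overlapped, and the hepatocyte mitogen Hgf (−0.77 ± 0.159, edgeR adjusted p = 0.0146). Without animal 3, none of these rose and 6 fell.

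Many targets of drug-sensing receptors rose, but only 3 of 10 in the PXR list. Of 14 CAR targets tested, 10 rose and none fell, with a median log2 fold change of 2.78. The summed level of the list was 4860 to 5360 CPM in the vehicle animals and 52000, 17500, 13800 and 24800 CPM in panadiplon animals 1 to 4. Cyp2b1, the classic phenobarbital-inducible cytochrome P450, stood at 475, 227, 347 and 450 CPM in the vehicle animals and at 13800, 2190, 599 and 5200 CPM in the treated animals. It rose by 3.86 ± 0.912 (edgeR adjusted p = 0.0327), and treated animals spanned a wide range while all lay above the vehicle animals. Cyp2b2, a near copy of Cyp2b1 with which it may share reads, rose by 3.67 ± 0.741 (edgeR adjusted p = 0.0195). The microsomal epoxide hydrolase Ephx1 rose from 302 ± 31.4 to 2990 ± 1850 CPM (SD, n = 4 each), by 3.31 ± 0.393 (edgeR adjusted p = 0.00242). The export pump Abcc3 stood at 3.53, 6.88, 9.86 and 5.93 CPM against 352, 79.8, 37.6 and 99.4 CPM, and rose by 4.43 ± 0.777 (edgeR adjusted p = 0.0121). The gene of CAR itself, Nr1i3, named after its value was seen, had 149 ± 30.1 CPM in the vehicle group and 71.8 ± 31.8 CPM in the panadiplon group and did not pass (−1.05 ± 0.362, edgeR adjusted p = 0.094), but passed without animal 3 (−0.79, edgeR adjusted p = 0.025).

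Of 10 PXR targets tested, 3 rose and none fell, with a median of 0.29. The other 7 did not pass, with log2 fold changes from −0.54 to 0.57. The pair annotated Cyp3a23/3a1 stood at 2230, 1700, 2580 and 3000 CPM in the vehicle animals and 20200, 11800, 9960 and 15000 CPM in the treated animals. It rose by 2.58 ± 0.254 (edgeR adjusted p = 0.000938) with the groups apart. Cyp2c24, another P450, rose by 5.26 ± 0.808 (edgeR adjusted p = 0.00788), from 2.28 ± 1.79 to 88.7 ± 60.8 CPM (SD, n = 4 each). Per length of transcript, on the deposited FPKM scale, Cyp2b1 went from 194 ± 57.6 to 3120 ± 3340 FPKM while the urea cycle enzyme Cps1 went from 1290 ± 52.2 to 681 ± 232 FPKM (SD, n = 4 each).

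Of 7 AhR targets that passed the filter on low counts, 4 rose and none fell, with a median of 2.68, and the other 3 of the 10 listed had 0 to 5 reads per animal. The count was 2 without vehicle animal 1 and without vehicle animal 3. Cyp1a1, the P450 most closely tied to AhR, stood at 1.06, 9.15, 7.18 and 2.97 CPM in the vehicle animals and at 320, 44.5, 46.1 and 75.2 CPM in the treated animals. It rose by 4.58 ± 0.939 (edgeR adjusted p = 0.0207). Its relative Cyp1a2, which rat liver expresses without an inducer, overlapped between groups at 1600 ± 729 and 2390 ± 1120 CPM and did not pass (0.58 ± 0.392, edgeR adjusted p = 0.362). The glucuronosyltransferase transcript Ugt1a6 stood at 10.4, 16.4, 16.3 and 15.6 CPM against 566, 247, 306 and 294 CPM, and rose by 4.59 ± 0.308 (edgeR adjusted p = 0.000326). Ugt1a7c of the same locus rose by 4.16 ± 0.394 (edgeR adjusted p = 0.00159). The Ugt1a transcripts share their last exons, so reads may be split among them. The Ugt1a6 promoter, at chr9:96194768-96195067 on the plus strand (RefSeq, GRCr8), is shown because this gene had the greatest rise among the AhR targets, with capitals marking the AhR core element GCGTG on either strand.
Ugt1a6: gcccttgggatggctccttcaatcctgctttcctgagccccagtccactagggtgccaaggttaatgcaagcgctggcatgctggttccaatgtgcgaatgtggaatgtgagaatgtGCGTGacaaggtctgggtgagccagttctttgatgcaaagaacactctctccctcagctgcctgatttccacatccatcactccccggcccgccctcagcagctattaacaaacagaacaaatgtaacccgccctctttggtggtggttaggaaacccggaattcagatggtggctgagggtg
It held 1 copy, and the element occurred in 3 of the 3 promoters available for the AhR targets that rose and in 29.7% of all promoters. The other elements searched, on either strand, were the antioxidant response element core TGANNNNGC and TGATG, the core of the element that ATF4 binds. The first was in 8 of 14 promoters of the NRF2 targets that rose (57.1%) and in 4 of 8 of the CAR targets that rose (50%), against 40.5% of all promoters. TGATG was in 2 of 7 promoters of the ATF4 targets that passed (28.6%), against 40.1% of all promoters.

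Of 26 NRF2 targets tested, 15 rose and none fell, with a median of 1.52, and without animal 3 there were 16. NRF2 (gene Nfe2l2) drives genes against oxidants and electrophiles. The quinone reductase Nqo1 stood at 16.3, 7.79, 18.5 and 37.3 CPM in the vehicle animals and 242, 71.9, 126 and 72.2 CPM in the treated animals, and rose by 2.68 ± 0.584 (edgeR adjusted p = 0.0253). The aldehyde reductase Akr7a3 rose from 38.9 ± 8.14 to 557 ± 332 CPM (SD, n = 4 each), by 3.84 ± 0.434 (edgeR adjusted p = 0.00242), and the glutathione peroxidase Gpx2 by 4.43 ± 0.722 (edgeR adjusted p = 0.00877). Heme oxygenase, Hmox1, named after its value was seen, had a log2 fold change of 0.24 and did not pass. The cystine carrier Slc7a11, named likewise, was below the filter, with 0 reads in the 4 vehicle animals and 17, 1, 9 and 1 in the treated animals. The lists share members, so their counts overlap. Of the NRF2 targets that rose, Nqo1 is also in the AhR list and Gsta2 in the PXR list. Gsta3, Gstm1, Ephx1 and Akr7a3 are also in the CAR list.

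Glutathione transferases, which attach glutathione to electrophiles, rose in 10 of 17 cases and fell in none, with a median of 1.4. Gsta3 stood at 11.1, 12.4, 8.68 and 4.6 CPM in the vehicle animals and 203, 189, 166 and 190 CPM in the treated animals. It rose by 4.35 ± 0.275 (edgeR adjusted p = 0.000256), and the treated animals lay close to each other, far above the vehicle animals. Gstm1 stood at 557, 513, 511 and 611 CPM against 3540, 2560, 2280 and 2330 CPM, a rise of 2.29 ± 0.162 (edgeR adjusted p = 0.000256). Gsta5 rose by 2.98 ± 0.322 (edgeR adjusted p = 0.00164). Reads may be shared among the Gsta genes and among the Gstm genes, which are similar in sequence. The genes Grin2c and Slc16a5 had the greatest rises of all genes named by size. Grin2c, a subunit of the NMDA receptor, stood at 0.118, 0, 0.107 and 0.242 CPM in the vehicle animals and 37.6, 9.64, 6.13 and 18 CPM in the treated animals (edgeR adjusted p = 0.00387). Slc16a5, a monocarboxylate carrier, had 5 reads in all 4 vehicle animals together and 918 in the panadiplon animals.

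**Figure D3:**
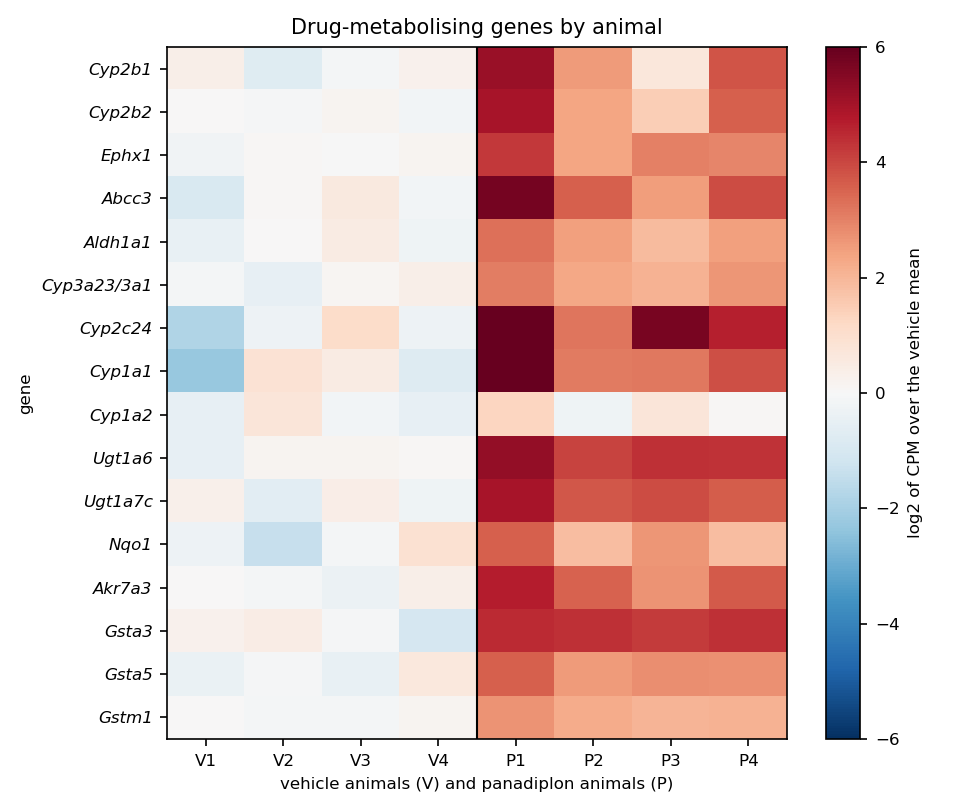
Log2 ratio of each animal's CPM to the vehicle mean (colour scale, red above and blue below, limited to 6 either way) for 16 genes of drug metabolism (rows) in vehicle animals 1 to 4 and panadiplon animals 1 to 4 (columns). Panadiplon animal 1 has the highest Cyp2b1 (13800 CPM) and animal 3 the lowest of the treated animals (599 CPM), whereas Gsta3 is between 166 and 203 CPM in all of them.

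Some ATF4 targets and endoplasmic reticulum chaperones rose. ATF4 is the factor that answers amino acid shortage and endoplasmic reticulum stress. Of its 21 targets tested, 5 rose and 2 fell, with a median of 0.48, against 7.89% higher and 5.59% lower of all genes tested. Phgdh, the first enzyme of serine synthesis, stood at 0.177, 1.3, 1.39 and 0.787 CPM in the vehicle animals and 27.9, 7.44, 9.78 and 10.8 CPM in the treated animals, a rise of 3.92 ± 0.616 (edgeR adjusted p = 0.00781). Psat1, the next enzyme, rose by 2.1 ± 0.495 (edgeR adjusted p = 0.0301) and asparagine synthetase, Asns, by 2.29 ± 0.577 (edgeR adjusted p = 0.0366). The last enzyme of serine synthesis, Psph, also in the ATF4 list, had a log2 fold change of −0.35 and did not pass (edgeR adjusted p = 0.232). Without animal 3 Psph passed (−0.56, edgeR adjusted p = 0.0276), Psat1 did not (2.11, edgeR adjusted p = 0.0521), and neither did Chac1 (−2.66, edgeR adjusted p = 0.0607). In contrast, the ATF4 targets Chac1, which degrades glutathione, and Sesn2, a stress-induced sestrin, fell by 2.56 and 0.95. The stress genes Ddit3, Atf3 and Trib3, named after their values were seen, had log2 fold changes of −0.03, 0.17 and 0.68, and none passed. Of 13 endoplasmic reticulum chaperones, 7 rose and none fell, with a median of 0.72. Calreticulin, Calr, stood at 398, 454, 359 and 434 CPM against 761, 651, 1080 and 675 CPM and rose by 0.94 ± 0.169 (edgeR adjusted p = 0.00789). Hspa5, the main chaperone of this compartment, rose by 0.76 ± 0.183 (edgeR adjusted p = 0.0255), with the highest value, 915 CPM, in animal 3 and a log2 fold change of 0.54 without that animal (edgeR adjusted p = 0.0177). Without animal 3 the chaperone median was 0.42 and the count 7, it was 4 without vehicle animal 1 or 3, and with RIN as a covariate it was 2. The count of ATF4 targets that rose was 3 without any 1 of the vehicle animals. Animal 3 also held the pancreas transcripts, whose part in the chaperone rise was not tested.

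Enzymes that dispose of nitrogen and degrade amino acids fell. Of 21 genes of the urea cycle and amino acid breakdown, 14 fell and none rose, with a median of −0.89. Their summed level was 23500 to 27600 CPM in the vehicle animals and 8340, 15700, 14500 and 15400 CPM in the treated animals. Ornithine aminotransferase, Oat, stood at 757, 541, 643 and 502 CPM in the vehicle animals and at 20.4, 81.1, 104 and 77.2 CPM in the treated animals. It had the greatest fall of all genes named by size, by 3.11 ± 0.457 (edgeR adjusted p = 0.00615), and the groups were far apart. Cps1, the carbamoyl phosphate synthetase that begins the urea cycle in mitochondria, stood at 7620, 7310, 7270 and 7860 CPM against 1790, 3670, 4450 and 4430 CPM, and fell by 1.07 ± 0.25 (edgeR adjusted p = 0.0236). Of the other urea cycle enzymes, Ass1 (−0.96), Asl (−0.81) and Arg1 (−0.65) also fell, whereas Otc, named after its value was seen, had a log2 fold change of −0.27 and did not pass. These calls changed with animal 3, and those of Ass1, Asl and Arg1 with other animals too. Without animal 3 Otc passed (−0.34, edgeR adjusted p = 0.0358), and Ass1 (−1.01, edgeR adjusted p = 0.0806), Asl (−0.74, edgeR adjusted p = 0.0575) and Arg1 (−0.68, edgeR adjusted p = 0.0574) did not.

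Histidase, Hal, fell by 1.27 ± 0.163 (edgeR adjusted p = 0.00225), from 374, 325, 327 and 278 CPM to 97.2, 153, 131 and 161 CPM. Proline dehydrogenase, Prodh1, fell by 1.77 ± 0.201 (edgeR adjusted p = 0.00161), from 434 ± 39.3 to 127 ± 35.6 CPM (SD, n = 4 each). Tyrosine aminotransferase, Tat, fell by 1.19 ± 0.323 (edgeR adjusted p = 0.043) and tryptophan dioxygenase, Tdo2, by 0.89 ± 0.225 (edgeR adjusted p = 0.0308). In all of these genes every treated animal was below every vehicle animal. The count of 14 depended on single animals. It was 4, 7, 5 and 6 without vehicle animal 1, 2, 3 and 4, 8 without panadiplon animal 3 and 7 without panadiplon animal 4. Without animal 3 the median was −0.86. With RIN as a covariate it was 10.

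Genes of both zones of the liver lobule were among those that fell. Of 12 periportal genes, which include urea cycle enzymes, 7 fell and none rose, with a median of −0.88. These 7 include Cps1, Ass1, Asl, Arg1 and Hal, already described above. Of 12 pericentral genes, 5 fell and 1 rose, with a median of −0.6. Oat, also described above, is among the pericentral genes that fell. The zone counts therefore partly repeat the falls in nitrogen metabolism. Cyp2e1, the pericentral P450 that oxidises ethanol and acetaminophen, stood at 6220, 6260, 6120 and 5630 CPM in the vehicle animals and 1050, 2190, 1060 and 1810 CPM in the treated animals. It fell by 1.99 ± 0.241 (edgeR adjusted p = 0.00193). Glutamine synthetase, Glul, fell by 0.72 ± 0.209 (edgeR adjusted p = 0.0496) and Axin2, a target of Wnt signalling, by 1.17 ± 0.176 (edgeR adjusted p = 0.00393). The ammonium carrier Rhbg was the pericentral gene that rose, from 18.7, 10.4, 14.4 and 19.5 CPM to 38.4, 35, 45.5 and 35.7 CPM (1.29 ± 0.184, edgeR adjusted p = 0.00347). The periportal count was 1, 3, 3 and 2 without vehicle animal 1, 2, 3 and 4, and 4 without panadiplon animal 3 or 4.

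**Figure D4:**
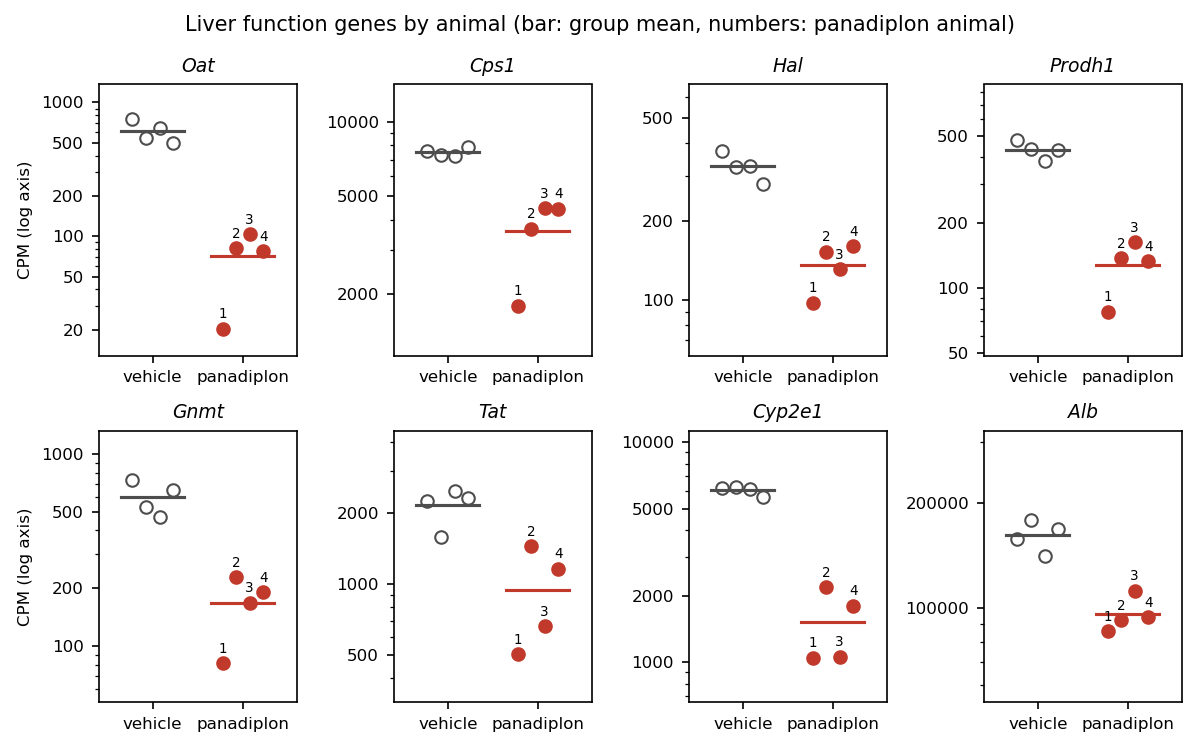
CPM on a log axis of 8 genes of amino acid breakdown, the urea cycle, drug oxidation and secretion in the 4 vehicle animals (open points) and the 4 panadiplon animals (filled points, numbered by animal), with a bar at each group's mean. Oat falls furthest, from 502 to 757 CPM in the vehicle animals to 20.4 to 104 CPM in the treated animals.

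Secreted proteins were lower in part. Albumin, Alb, stood at 158000, 179000, 141000 and 169000 CPM in the vehicle animals and 85700, 92300, 112000 and 94100 CPM in the treated animals, and fell by 0.75 ± 0.134 (edgeR adjusted p = 0.0079). Of 11 secreted and transport proteins, 4 fell and none rose, with a median of −0.28. Of 10 hepatocyte markers, 4 fell and none rose, with a median of −0.33, and among these the hepatocyte factor Hnf4a fell by 0.39 ± 0.106 (edgeR adjusted p = 0.0375). Of 18 acute phase genes, 3 fell and none rose. The counts of these lists are to be read beside the 5.59% lower and 7.89% higher of all genes tested. The hepatocyte count was 2 without vehicle animal 1, 2 or 3 or panadiplon animal 4, and the acute phase count was 1 without any 1 vehicle animal and without panadiplon animal 2 or 4. In bulk tissue, fewer cells of a type and less RNA per cell cannot be told apart. Slc27a5, which activates bile acids before conjugation, stood at 760, 969, 995 and 984 CPM against 340, 383, 346 and 524 CPM and fell by 1.22 ± 0.162 (edgeR adjusted p = 0.00242). Apoc3, an apolipoprotein, fell by 0.89 ± 0.116 (edgeR adjusted p = 0.0023), and Plin3, a coat protein of lipid droplets, rose by 1.42 ± 0.138 (edgeR adjusted p = 0.000938).

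Few genes of fatty acid oxidation and of carnitine and coenzyme A metabolism, the pathways named in the background, passed at the level of RNA. Of 19 genes of mitochondrial fatty acid oxidation, 1 rose, the electron carrier Etfa (0.31 ± 0.088, edgeR adjusted p = 0.0451), and none fell, against 7.89% higher and 5.59% lower of all genes tested. Etfa did not pass as any 1 animal was left out, when 0 genes of the list were higher and 0 to 1 lower. The list median was 0 and the log2 fold changes ran from −0.42 to 0.31. Cpt1a, the carnitine palmitoyltransferase that admits fatty acids to mitochondria, stood at 225, 247, 371 and 391 CPM in the vehicle animals and 340, 390, 90 and 518 CPM in the treated animals (0.12 ± 0.473, edgeR adjusted p = 0.898). The groups overlapped, and animal 3 was far below the rest. Of 15 genes of peroxisomal fatty acid oxidation, 2 rose and 1 fell, against the same 7.89% and 5.59% of all genes tested. Their median was 0.04 and the log2 fold changes ran from −0.7 to 1.08. Those that rose were the thiolase Acaa1a (0.56 ± 0.135, edgeR adjusted p = 0.0256) and the thioesterase Acot8 (0.39 ± 0.113, edgeR adjusted p = 0.0468), and the count was 0 to 2 higher and 0 to 1 lower as each animal was left out. The gene that fell was Crot, which is also in the carnitine list. Of 23 genes of carnitine and coenzyme A metabolism, 1 rose and 1 fell, again against 7.89% and 5.59% of all genes tested, with a median of 0.01. Crot, the peroxisomal carnitine octanoyltransferase, fell by 0.7 ± 0.168 (edgeR adjusted p = 0.0251), and Ppcdc, a decarboxylase of coenzyme A synthesis, rose by 0.7 ± 0.139 (edgeR adjusted p = 0.0121). Neither Crot nor Ppcdc passed with RIN as a covariate. Without animal 3, 3 of these 23 rose and 2 fell. None of 22 PPARalpha targets passed in edgeR or DESeq2, with a median of −0.08 and 2 at an unadjusted p under 0.05, while 2 rose and 1 fell without animal 3.

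None of the 13 genes of mitochondrial DNA passed in edgeR, with a median of −0.28, 6 at an unadjusted p under 0.05 and 5 lower by DESeq2. Of 23 nuclear genes of the respiratory chain 2 rose and none fell, against 7.89% higher and 5.59% lower of all genes tested. That count was 0 to 4 higher as each animal was left out. Among 25 genes of cholesterol synthesis 4 rose, against the same 7.89% of all genes tested. Their median was 0.53, and 0.23 without animal 3. The cholesterol count was 1 without vehicle animal 1, 3 or 4 and 2 without panadiplon animal 2 or 4. Among 19 genes of fatty acid and triglyceride synthesis 3 rose, again against 7.89% of all genes tested. Without animal 3 the count was 3 higher and 3 lower, with the median moving from 0.57 to −0.1. Without any 1 of the vehicle animals or panadiplon animal 1, 1 gene of this list rose. Malic enzyme, Me1, which supplies NADPH, rose without overlap from 29.4, 27.1, 34.2 and 24.2 CPM to 150, 89.7, 147 and 90.5 CPM (2.05 ± 0.205, edgeR adjusted p = 0.00128). The desaturase Fads1 rose by 1.98 ± 0.47 (edgeR adjusted p = 0.0323), with 735 CPM in animal 3 and 186 to 334 CPM in the other treated animals, and by 1.45 without animal 3 (edgeR adjusted p = 0.0296). Transcripts of the drug's own receptor were near 0 in liver. Of 17 genes for GABA-A subunits and the benzodiazepine-binding mitochondrial protein TSPO, the latter alone passed the filter on low counts. The 16 subunit genes had 0 or 1 read per animal, except Gabrp, which had 1, 1, 2 and 5 reads in the vehicle animals and 4, 2, 23 and 0 in the treated animals. Tspo stood at 4.59, 3.63, 4.18 and 4.12 CPM in the vehicle animals and 5.29, 6.39, 6.39 and 4.89 CPM in the treated animals (0.47 ± 0.142, edgeR adjusted p = 0.0536), which did not pass although the groups did not overlap.

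Few markers of other liver cells passed. Among 12 Kupffer cell and macrophage markers 1 fell, the haptoglobin-haemoglobin receptor Cd163 (−0.56 ± 0.0764, edgeR adjusted p = 0.00257). That count is close to the 5.59% lower of all genes tested. All 12 had log2 fold changes below 0, from −0.56 to −0.11 with a median of −0.29, and 5 were lower at an unadjusted p under 0.05. None of 11 stellate cell, 10 endothelial or 6 lymphocyte markers tested passed in edgeR, with 2, 3 and 0 at an unadjusted p under 0.05 and 1, 0 and 0 by DESeq2. Without animal 3, 2 stellate cell markers fell. Of 5 erythroid markers tested 3 fell, among them Hbb, a beta globin, from 366, 213, 525 and 254 CPM to 137, 145, 165 and 139 CPM (−1.21 ± 0.256, edgeR adjusted p = 0.0176). The treated animals were all below the vehicle animals, and the summed level of the list was 634 to 1100 CPM against 407 to 497 CPM. The count was 1 without vehicle animal 1 or panadiplon animal 1. Of 5 cholangiocyte markers, Epcam rose from 7.93 ± 1.44 to 16 ± 3.04 CPM (SD, n = 4 each), by 1.01 ± 0.171 (edgeR adjusted p = 0.00655). The part of these cells in the other results was not tested.

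Alpidem and zolpidem are imidazopyridines that bind the benzodiazepine site of the same receptor, whereas panadiplon is an imidazoquinoxaline. Alpidem was withdrawn because of liver injury and zolpidem remains in use. Because the studies differed in batch number and, for alpidem, in vehicle, each drug was compared with its own vehicle animals and the difference of the log2 effects was tested in 1 fit of 4 groups, where batch and study cannot be told apart from drug beyond what the vehicle groups remove. Alpidem changed 1550 of 12854 genes (12.1%), 880 higher and 670 lower. Zolpidem, at a lower dose and with 3 animals, changed 8 of 13051 (0.0613%), 0.046% higher and 0.0153% lower, with 1047 at an unadjusted p under 0.05 (edgeR). The effect of panadiplon differed from that of alpidem in 1 of 13216 genes (0.00757%), with 1710 at an unadjusted p under 0.05 by edgeR and 166 past the threshold by DESeq2. It differed from that of zolpidem in 31 of 13459 genes (0.23%), 17 (0.126%) with a more positive effect of panadiplon and 14 (0.104%) with a more negative one. The count of 31 was 9 and 14 without vehicle animals 1 and 2 of panadiplon, 17, 12 and 14 without panadiplon animals 1, 2 and 4, and 11 without zolpidem vehicle animal 3. It was 15 and 8 without zolpidem animals 2 and 3 and 21 to 45 without any other animal, with 45 without zolpidem vehicle animal 2. A gene without a called difference is not shown to respond alike, since the median SE of a difference was 0.223 for alpidem and 0.245 for zolpidem.

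The gene that differed from alpidem was Il1r1, the interleukin 1 receptor, at 168 ± 28.2 CPM in the panadiplon vehicle group and 80 ± 4.57 CPM in the panadiplon group (SD, n = 4 each). Panadiplon changed it by −1.07 and alpidem by 0.24, a difference of −1.34 ± 0.173 (edgeR adjusted p = 0.00938). The call was lost with RIN as a covariate (−1.18, edgeR adjusted p = 0.115) and in the RefSeq gene table (−1.14, edgeR adjusted p = 0.0695), and the adjusted p was 0.00306 to 0.0457 as each of the 16 animals was left out. For the glucuronosyltransferase Ugt1a6 the log2 effect was 4.59 for panadiplon and 0.85 for zolpidem, a difference of 3.74 ± 0.417 (edgeR adjusted p = 0.00515). The difference was 3.36 ± 0.453 for Ugt1a7c (edgeR adjusted p = 0.0141) and 1.65 ± 0.246 for Gstm1 (edgeR adjusted p = 0.0145). Cd276, Ces2j and Dcakd also had more positive effects of panadiplon, by 1.53, 1.32 and 1.27. More negative effects of panadiplon were found for Klf10 (−2.22), Slc27a5 (−1.67 ± 0.233, edgeR adjusted p = 0.0119), Itpr1 (−1.64), Pla1a (−1.51), Slc13a3 (−1.3) and Pcdh18 (−1.27).

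At the matched dose of 600 mg per kg per day for 4 days, no member of the gene lists passed the test of the difference between panadiplon and alpidem. For Gsta3 the log2 effects were 4.35 and 4.25, and the difference of 0.06 had a 95% interval from −1.2 to 1.33. For Cyp3a23/3a1 they were 2.58 and 2.48, with an interval of the difference from −0.66 to 0.81. For Top2a they were 2.27 and 1.26, with an interval from 0.19 to 1.8 (edgeR adjusted p = 0.288). For Cps1 they were −1.07 and −0.18, with an interval from −1.6 to −0.21 (edgeR adjusted p = 0.265). Mitotic genes rose under alpidem in 18 of 30 cases tested (6.85% of all genes) with a median of 1.3, against 30 of 31 and a median of 1.91 under panadiplon. Urea cycle and amino acid breakdown genes fell under alpidem in 6 cases (5.21% of all genes) with a median of −0.34, against 14 and −0.89. Under zolpidem, at 500 mg per kg per day, none of these genes passed in edgeR (0.0613% of all genes), with medians of 0.35 for mitosis and −0.51 for amino acid breakdown, and 1 CAR target rose with a list median of 1.54. Foxm1 had a difference of 1.87 ± 0.421 between panadiplon and zolpidem, which did not pass (edgeR adjusted p = 0.0838), and Cyp2e1 one of −1.44 ± 0.284 (edgeR adjusted p = 0.0509).

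**Figure D5:**
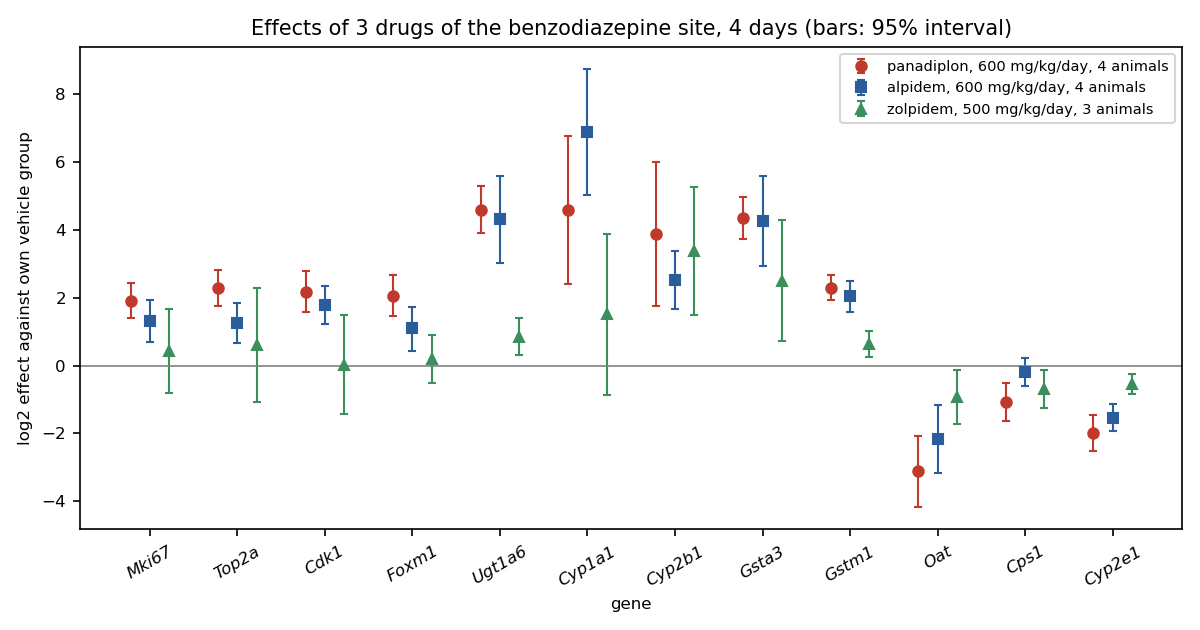
Log2 effect against the own vehicle group (y axis), with bars of 95% intervals, of 12 genes (x axis) under panadiplon (4 animals, 600 mg per kg per day), alpidem (4 animals, 600 mg per kg per day) and zolpidem (3 animals, 500 mg per kg per day), each for 4 days. Panadiplon and alpidem lie close together at Gsta3 (4.35 and 4.25), whereas zolpidem lies near 0 at Cdk1 (0.03) and below both at Ugt1a6 (0.85).

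Among the 98 comparisons of a treated group with its vehicle group in the series, panadiplon was number 25 by the count of genes called, against a median of 313 genes. For the median of the mitosis list it was number 2 from the highest, at 1.91, behind azithromycin at 1.94 and ahead of the compound coded Cmpd Z at 1.7. It was also number 2 for DNA replication, number 7 for glutathione transferases and number 8 for CAR targets. For urea cycle and amino acid breakdown it was number 92 of 98 from the highest. Strains, sexes, doses, durations, vehicles and numbers of animals differ across these comparisons, so the order is a description.

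The levels were also set beside 52 vehicle animals of 13 studies with the same strain, sex, vehicle, batch number and days of dosing. Cdk1 ran from 0.235 to 5.21 CPM over those animals and from 6.05 to 13.5 CPM in the panadiplon animals on this scale, so all 4 lay above every vehicle animal. Mki67 ran from 1.67 to 17.7 CPM over the vehicle animals and from 16.8 to 35.6 CPM under panadiplon, with 3 of 4 above all of them. Oat ran from 277 to 1020 CPM against 19.3 to 98.3 CPM, and Cyp2e1 from 2560 to 9930 CPM against 988 to 2080 CPM, with all 4 treated animals below in each case. All 4 treated animals lay above every vehicle animal for 1.59% of the 14174 genes on this scale and below every one for 0.663%. They lay above for 16 of 31 mitotic genes, 10 of 15 CAR targets, 12 of 26 NRF2 targets and 8 of 17 glutathione transferases. For urea cycle and amino acid breakdown all 4 lay below every vehicle animal in 4 of 21 genes.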

How the data were processed

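Members, gene lists and naming rules were chosen with earlier results of these data known. Per the labels' protocols, RNA was purified on MagMAX magnetic beads and made into TruSeq Stranded mRNA libraries, and the submitters' processing notes name build Rnor 6.0. The aligner and quantifier are not given in the sources used here. The authors deposited expected counts per gene, of which 88.05% of non-zero values were whole (tolerance 1e-06), and these were rounded. The deposited FPKM values were used only to compare levels between genes. Counts over Ensembl genes (32893 rows) were used, with those over RefSeq genes (34335 rows) as an alternative. The tables give no coordinates. The row of the Ugt1a locus equals the sum of 10 transcript rows and was dropped.

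Groups followed the labels for treatment, study, batch number and vehicle, and n counts animals, with 1 library each. The comparison of panadiplon with vehicle used only its 8 animals. Genes were filtered with filterByExpr, scaled by TMM and tested with the robust quasi-likelihood F test of edgeR 4.0.16 in R 4.3.3, 2-sided, with Benjamini-Hochberg adjustment over all genes tested. That filter keeps a gene that is expressed in either group alone. CPM values carry the TMM factors. SE is the absolute log2 fold change divided by the square root of the F statistic of its test. The 95% intervals use this SE and the t distribution, and both cover variation between animals. The differences between drugs were fitted over 4 groups. Scripts were tested on simulated data. Alternatives were DESeq2 1.42.0, RLE size factors, no filter on low counts, the RefSeq gene table, RIN as a covariate, a minimum absolute log2 fold change of 1 and each animal left out. Flow cell as a covariate, a fit without robust dispersion, panadiplon animals 3 and 4 left out, and wider sets of vehicle animals were added after the data were seen. All 8 libraries differed from each other by more than sampling noise.

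The 47 gene lists held 692 distinct symbols, of which 659 matched the table, 5 of them by another name. Named genes were the 12 greatest rises and 12 greatest falls among genes past the threshold with a mean of at least 5 CPM in the higher group and no overlap between groups, and per list up to 6 members by mean level and 4 by size of change. All members of the cell cycle and GABA-A lists could be named, and for each difference between drugs 6 genes each way. Other genes are said to be named after their values were seen, and those without such a remark outside the rule are fixed list members. Genes without a symbol were passed over.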

Additional observations from a re-analysis of the deposited data

Results flagged for a closer look

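In 28 of 304 groups of 4 animals tested, 1 animal lay far from the other 3 by Dixon's test at the 95% level, where chance gives about 1 in 20. Panadiplon animal 1 accounted for 11 of them. It was far above the others in Asns (15.3 CPM), Ccnb1 (13.4), Cyp1a1 (320), Hmox1 (36.8), Phgdh (27.9) and Ugt1a7c (241), and in the summed CPM of drug transporters (4010), glutathione transferases (11400) and NRF2 targets (17600). It was far from the others in Cdkn1b (17.7 CPM) and far below them in the summed CPM of urea cycle and amino acid breakdown genes (8340). Animal 1 had the highest RIN of its group, 8.7, and the part of RNA quality in its position was not tested.

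Panadiplon animal 3 lay far above the others in Srebf1 (542 CPM) and Cry1 (39.6), in the summed CPM of fatty acid and triglyceride synthesis (4420) and of pancreas markers (665), and far from them in male-predominant genes (7230). Reads of the pancreas genes Prss1, Cpa1, Pnlip and Ctrb1 were frequent in 2 treated animals although the tissue is liver. These genes did not pass the filter on low counts. Animal 3 had 4265 reads of Prss1, 1613 of Cpa1, 1932 of Pnlip and 5268 of Ctrb1, and animal 4 had 210, 50, 73 and 210. The vehicle animals had 0 or 1 read of each.

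The other animals that lay apart were panadiplon animal 2 in Rrm2 (3.93 CPM), vehicle animal 1 in Hmox1 (25.2), Slc27a5 (760), Ugt1a6 (10.4) and the summed CPM of interferon-stimulated genes (428) and lymphocyte markers (22.1), vehicle animal 2 in the summed CPM of mitosis genes (72.8), vehicle animal 4 in Asl (387 CPM), and vehicle animal 3 in Mcm5 (0.536) and in the summed CPM of lipid droplet and lipoprotein genes (23200), neutrophil markers (2.57) and peroxisomal fatty acid oxidation (7760).

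Effects that differed between drugs were tested in the fits of 4 groups. The log2 effect of panadiplon minus that of alpidem was −1.34 for Il1r1. Against zolpidem it was 3.74 for Ugt1a6, 3.36 for Ugt1a7c, 1.65 for Gstm1, 1.53 for Cd276, 1.32 for Ces2j and 1.27 for Dcakd, and −2.22 for Klf10, −1.67 for Slc27a5, −1.64 for Itpr1, −1.51 for Pla1a, −1.3 for Slc13a3 and −1.27 for Pcdh18.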

How the results depend on the processing

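Of 2150 values of named genes under the alternatives, 1792 kept their side of the threshold, 340 no longer passed and 18 newly passed. No gene past the threshold in either setting changed sign. The count of genes changed by panadiplon, 1696, was 1710 with RLE size factors, 2208 with DESeq2, 1475 with no filter and 2037 in the RefSeq table. It moved further with RIN as a covariate (1035), without panadiplon animals 3 and 4 (852), with the vehicle animals of all 13 matching studies (3439) and with a minimum absolute log2 fold change of 1 (455), and was 866 to 1600 as each animal was left out. The count of genes whose effect differed from alpidem, 1, was 166 with DESeq2, 2 with no filter, 0 in the RefSeq table, 0 with RIN as a covariate, and 1 to 14 as each animal was left out, with 14 and 6 without alpidem vehicle animals 2 and 4, 9 and 2 without alpidem animals 3 and 2, 4 and 2 without panadiplon animals 1 and 2 and 2 without vehicle animal 1 of panadiplon. The count for zolpidem, 31, was 254 with DESeq2, 65 in the RefSeq table and 8 to 45 as each animal was left out. The cause of these moves was not tested. Counts of list members stayed within 1.5 times in 645 of 918 values. No paired analysis was possible because the labels give no replicate numbers, and those used here only name the animals. RIN was lower in the panadiplon group than in the vehicle group, so that RNA quality and treatment cannot be told apart fully. Depth limits genes below about the level of the filter, among them most GABA-A subunits.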

Other observations

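Some members of other gene groups also changed after panadiplon. Of 13 circadian clock genes tested, 3 fell and none rose, against 5.59% lower and 7.89% higher of all genes tested. Cry1, a repressor of the clock, fell by 0.84 ± 0.163 (SE, n = 4 and 4, edgeR adjusted p = 0.0112). The output factor Tef fell by 0.55 ± 0.106 (edgeR adjusted p = 0.0104) and the activator Arntl by 0.36 ± 0.068 (edgeR adjusted p = 0.01). Arntl stood at 50.4 to 54 CPM in the vehicle animals and at 39.4 to 42.7 CPM in the treated animals, with no overlap. The list count was 0 with RIN as a covariate, and the labels give no hour of death. Of 6 genes of ketone body synthesis and transport tested, 2 rose and 1 fell, against 7.89% higher and 5.59% lower of all genes tested, and the counts were the same as each animal was left out. The ketone body dehydrogenase Bdh1 rose by 0.55 ± 0.102 (edgeR adjusted p = 0.00908) and the monocarboxylate carrier Slc16a7 by 0.63 ± 0.0991 (edgeR adjusted p = 0.00471), and the carrier Slc16a1 fell by 0.47 ± 0.0995 (edgeR adjusted p = 0.0157). Bdh1 and Slc16a1 did not pass with RIN as a covariate or with the vehicle animals of all 13 matching studies. Slc16a1 also did not pass without panadiplon animals 3 and 4, and Slc16a7 did not pass in the RefSeq gene table.

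Among the greatest falls of all genes were genes outside the lists described above. Mtmr7, a phosphoinositide phosphatase, stood at 17.9, 10.3, 12.2 and 8.65 CPM in the vehicle animals and 0.835, 1.73, 2.86 and 1.46 CPM in the treated animals, a fall of 2.81 ± 0.355 (edgeR adjusted p = 0.00242). Atp1b1, a subunit of the sodium pump, stood at 192, 116, 148 and 124 CPM against 22.3, 48.4, 41.6 and 39.1 CPM, and fell by 1.94 ± 0.25 (edgeR adjusted p = 0.00272). In both genes the treated animals were all below the vehicle animals, and animal 1 was lowest. Gnmt, the glycine methyltransferase that buffers S-adenosylmethionine, fell by 1.83 ± 0.297 (edgeR adjusted p = 0.00684). Slc16a10, a carrier of aromatic amino acids, fell by 1.82 ± 0.306 (edgeR adjusted p = 0.00883). The Wnt inhibitor Apcdd1 fell by 2.23 ± 0.286 (edgeR adjusted p = 0.00226). None of 13 interferon-stimulated genes passed in edgeR or DESeq2, with 0 at an unadjusted p under 0.05 and a median of 0.13. Of 8 heat shock genes 1 rose and 1 fell, with a median of −0.43. These counts are close to the 7.89% higher and 5.59% lower of all genes tested.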
